A study of Mus musculus with 8 samples.

Results

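The 10 genes described here, *Srsf1*, *Srsf2*, *Srsf3*, *Srsf4*, *Srsf5*, *Srsf6*, *Srsf7*, *Srsf9*, *Srsf10* and *Srsf11*, encode members of the serine/arginine-rich (SR) splicing factor family. They were chosen by gene name from the 54532 genes of the deposited count table, and all 10 were among the 17998 genes with enough counts to be tested. *Srsf12*, also named for this family, was kept in a separate list of SR-like coregulators. The family and its members below mean the 10 genes only. RNA from whole mouse retina was measured by bulk RNA-seq in 4 *Mettl3*-CKO samples (*Six3-Cre*+; *Mettl3* floxed/floxed) and 4 littermate control samples, all labelled postnatal day 7. *Mettl3* encodes the catalytic subunit of the complex that writes N6-methyladenosine (m6A) into mRNA, and the *Six3-Cre* driver acts in retinal progenitors, so blood vessels and other cells that enter the retina from outside are not its target. The genotype of the littermate controls and the number of pups behind each sample are not given in the sources used here, so the p-values below measure the spread between these samples, which may be partly technical.

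SR proteins bind short enhancer sequences in exons through N-terminal RNA recognition motifs. Their C-terminal tail of alternating arginine and serine residues, the RS domain, helps to recruit U1 snRNP and U2AF to the neighbouring splice sites. SR protein kinases and CLK kinases phosphorylate that tail, and it governs nuclear import, storage in nuclear speckles and activity. Several members stay on the spliced mRNA and act as adaptors for its export, and many limit their own level by splicing a poison exon into their transcript, which sends it to nonsense-mediated decay. The nuclear m6A reader YTHDC1 is known to bind SRSF3 and SRSF10, which links the family to the mark that *Mettl3* writes.

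Arginine and serine codons of the RS tail can be read in the coding sequence. The longest unbroken run of such codons need not cover the tail, so its length does not measure the tail. The longest runs of 4 members are shown, with the longest and the shortest of the family among them. Arginine codons are in capitals and serine codons in lower case, in the principal coding transcript of GENCODE vM21 on GRCm38, 5′ to 3′ on the coding strand.
*Srsf1*: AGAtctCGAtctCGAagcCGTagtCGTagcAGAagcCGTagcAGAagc
*Srsf2*: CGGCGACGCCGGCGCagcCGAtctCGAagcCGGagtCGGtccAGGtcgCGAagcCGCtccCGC
*Srsf6*: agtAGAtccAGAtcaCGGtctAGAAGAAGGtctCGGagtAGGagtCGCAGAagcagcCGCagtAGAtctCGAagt
*Srsf9*: tcaCGGtcgCGGtct
The *Srsf1* run, codons 204 to 219, lies in coding exon sequence at chr11:88049469-88049516 on the plus strand, in exon 4 of 4. It alternates arginine and serine without a break over 48 bases. The *Srsf2* run, codons 123 to 143, lies in exon 2 of 3 at chr11:116852265-116852327 on the minus strand and opens with 5 arginine codons in a row. The *Srsf6* run was the longest in the family at 75 bases, codons 194 to 218, and an intron divides it between exon 4 and exon 5 of 6 within chr2:162933852-162934291 on the plus strand. *Srsf9* had the shortest, 15 bases in exon 4 of 4 at chr5:115332630-115332644 on the plus strand. Counted over the whole coding sequence, neighbouring arginine and serine codons occurred 9 times in *Srsf9* and 106 times in *Srsf4*, the lowest and highest numbers among the 10 genes. The longest run of *Srsf4*, not shown, was only 8 codons (192 to 199), and *Srsf6* had 74 such neighbours.

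Over the first 80 codons, a fixed window at the N-terminal end, the median identity of the 45 pairs of genes was 47.5%. The closest pairs were *Srsf4* with *Srsf6* (72.0%), *Srsf1* with *Srsf9* (71.7%) and *Srsf3* with *Srsf7* (64.0%), and *Srsf5* stood nearest to *Srsf4* (63.6%) and *Srsf6* (61.9%). The annotation lists 85 transcripts for the 10 genes, of which 29 are protein coding, 15 are nonsense-mediated decay targets and 26 retain an intron. Nonsense-mediated decay transcripts are annotated for 9 members, all but *Srsf10*. The counts are one value per gene, so productive and poison-exon transcripts of a member are added together in every value given here.

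The libraries held 16227095 to 20281517 counts, which puts 3 counts, the floor taken for detection, at 0.148 to 0.185 CPM, the usual count scaled to library size. The CPM of single genes below are scaled by TMM, edgeR's correction of library size for composition, with factors of 0.969 to 1.01. Every member had 979 to 13689 counts in every sample, for which counting error alone is 3.20% at the lowest count and 0.855% at the highest. *Mettl3* itself, counted over its whole gene, measured 21.1, 29.6, 21.3 and 24.3 CPM in the 4 *Mettl3*-CKO samples, in replicate order, and 33.8, 32.5, 29.4 and 29.3 CPM in the 4 controls. The groups overlapped at *Mettl3*-CKO replicate 2, and the difference (log2 fold change −0.38, SE 0.12) missed the threshold of 0.05 with edgeR's quasi-likelihood test (Benjamini-Hochberg adjusted p = 0.0602) and passed it with DESeq2 (adjusted p = 0.0320) and, with edgeR, without *Mettl3*-CKO replicate 2 (log2 fold change −0.49, adjusted p = 0.0185). Of 13 lists of markers for cell types of the retina and its surroundings, 3 are given here beside the shares of all tested genes that edgeR called, 6.49% higher and 4.05% lower in *Mettl3*-CKO. In the rod list 7 of 10 genes were called lower, and the summed level was 1482 to 2735 CPM of the library total in *Mettl3*-CKO and 2835 to 4157 CPM in controls. That count was 2 without *Mettl3*-CKO replicate 1, 3 without *Mettl3*-CKO replicate 2 and 4 without *Mettl3*-CKO replicate 3, control replicate 2 or control replicate 4. In the cycling progenitor list 4 of 12 genes were called higher (7 with DESeq2, 3 with limma voom) and 8 did not pass, with summed levels of 2110 to 2822 CPM against 1533 to 2001 CPM, and 2 were called without *Mettl3*-CKO replicate 1 or 2. The vascular list had 7 of 9 genes called lower, and its summed level was 540 to 641 CPM in *Mettl3*-CKO and 552 to 657 CPM in controls. The log2 differences of its genes had a median of −1.34 and ran from −2.28 to 0.02. The sum weights genes by abundance and does not show this. The count called lower in this list was 3 without *Mettl3*-CKO replicate 1 or 3 and 4 without *Mettl3*-CKO replicate 2. Lens crystallin genes summed to 3095 CPM in control replicate 4 and to between 8.27 and 69.2 CPM in the other samples. In control replicate 1 mitochondrial genes took 2.38% of counts, against 1.69% to 1.76% in the other controls and 1.77% to 2.26% in *Mettl3*-CKO. In whole-retina RNA fewer cells of a type and less RNA per cell cannot be told apart.

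The SR family did not differ detectably between *Mettl3*-CKO and control retinas in any member. edgeR's quasi-likelihood test called 0 of the 10 higher and 0 lower, where it called 6.49% of all tested genes higher and 4.05% lower (10.5% in either direction). At an unadjusted p under 0.05, 0 members passed with edgeR, DESeq2 or limma voom, and 24.6% of all tested genes passed with edgeR. DESeq2 and limma voom also called 0 members, where they called 14.2% and 10.2% of all genes. The groups overlapped for 10 of 10 members, where 17.4% of all tested genes had groups that did not overlap. Among the 4452 tested genes whose mean CPM was at or above that of *Srsf4*, the member with the fewest counts, 11.5% were called by edgeR, 25.9% had an unadjusted p under 0.05 and 19.0% had groups that did not overlap.

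*Srsf1* and *Srsf9*, a pair with alike first coding stretches, are general activators of exon inclusion, and SRSF1 also acts in mRNA export. In replicate order, as in all lists of values below, *Srsf1* measured 576, 689, 599 and 589 CPM in *Mettl3*-CKO and 622, 646, 600 and 626 CPM in controls. The *Mettl3*-CKO samples lay on both sides of the narrow control range, with replicate 2 above it and the other 3 below it. *Srsf9* measured 65.2, 77.1, 62.8 and 61.8 CPM against 59.9, 73.4, 73.9 and 74.3 CPM. Here the lowest of the 8 values was a control, replicate 1, while the other 3 controls lay within about 1 CPM of each other and only *Mettl3*-CKO replicate 2 was above them. The means were 613 ± 51.3 and 623 ± 18.9 CPM for *Srsf1* and 66.7 ± 7.04 and 70.4 ± 6.97 CPM for *Srsf9* (SD, n = 4 in each group), differences of −0.02 (SE 0.08) and −0.08 (SE 0.10) on the log2 scale.

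*Srsf2* encodes a member that stays in the nucleus and is widely used as a marker of nuclear speckles. Its values were 309, 337, 330 and 323 CPM in *Mettl3*-CKO and 335, 358, 342 and 312 CPM in controls. All but the lowest *Mettl3*-CKO value fell inside the control range, and the difference was −0.05 (SE 0.08). Exons of *Srsf2* share 288 bases with *Mfsd11* and 460 bases with *Mettl23* on the opposite strand, and whether the counting used strand is not given in the sources used here, so reads of the shared bases cannot be assigned with certainty. Over the 8 samples *Mfsd11* had 4615 counts and *Mettl23* 3771, against 48017 for *Srsf2*.

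*Srsf3*, which has the shortest coding sequence of the 10 genes at 495 bases, and *Srsf7* encode shuttling adaptors for the export receptor NXF1. *Srsf3* measured 586, 594, 558 and 492 CPM in *Mettl3*-CKO and 620, 571, 498 and 486 CPM in controls. *Srsf7* measured 264, 267, 258 and 233 CPM in *Mettl3*-CKO and 268, 242, 221 and 227 CPM in controls. In both genes control replicate 1 was the highest of all 8 samples and *Mettl3*-CKO replicate 4 the lowest of its group. *Srsf7* had the most positive difference of the family, 0.09 (SE 0.09, 95% interval −0.09 to 0.28, adjusted p = 0.553 by edgeR's quasi-likelihood test), and *Srsf3* differed by 0.04 (SE 0.10).

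*Srsf4*, *Srsf5* and *Srsf6* form the group with the most alike first coding stretches, and all 3 proteins carry a pair of recognition motifs. *Srsf4*, the member with the lowest level, measured 57.7, 69.2, 60.2 and 55.6 CPM in *Mettl3*-CKO and 52.4, 68.0, 68.7 and 72.9 CPM in controls. It had the most negative difference of the family, −0.11 (SE 0.11, 95% interval −0.36 to 0.14, adjusted p = 0.606), although its lowest value was again control replicate 1. *Srsf5* measured 558, 629, 706 and 589 CPM against 732, 626, 625 and 553 CPM, and here control replicate 1 was the highest sample and control replicate 4 the lowest. *Srsf6* measured 436, 561, 491 and 468 CPM against 469, 522, 519 and 513 CPM. The controls of *Srsf6* other than replicate 1 lay close together, and the *Mettl3*-CKO samples reached beyond them on both sides. Their differences were −0.03 (SE 0.11) for *Srsf5* and −0.05 (SE 0.09) for *Srsf6*. Exons of *Srsf4* share 1532 of 3561 bases with the opposite-strand gene *Gm12992*, which had 1062 counts over the 8 samples against 9113 for *Srsf4* and was lower in *Mettl3*-CKO (log2 fold change −0.67, adjusted p = 0.0409 by edgeR). With the counts of both genes added, an alternative chosen after the data had been seen, the difference for *Srsf4* was −0.17. *Srsf5* has a processed pseudogene, *Gm12966*, with 99.0% identity over the aligned bases and 6.20% as many counts, and *Srsf3* has *Gm9761* with 2.23% as many, so a small part of the reads of these members is uncertain.

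*Srsf10* and *Srsf11* are the less typical members. SRSF10 acts as a splicing repressor when it is dephosphorylated, as in mitosis, and SRSF11 binds other SR proteins through its tail. *Srsf10* measured 302, 315, 323 and 279 CPM in *Mettl3*-CKO and 317, 297, 264 and 275 CPM in controls. *Srsf11* measured 336, 388, 363 and 349 CPM in *Mettl3*-CKO and 342, 359, 350 and 376 CPM in controls. For both genes the groups covered much of the same range, with differences of 0.08 (SE 0.09) and 0.01 (SE 0.08) on the log2 scale, the latter the smallest in the family.

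**Figure D1:**
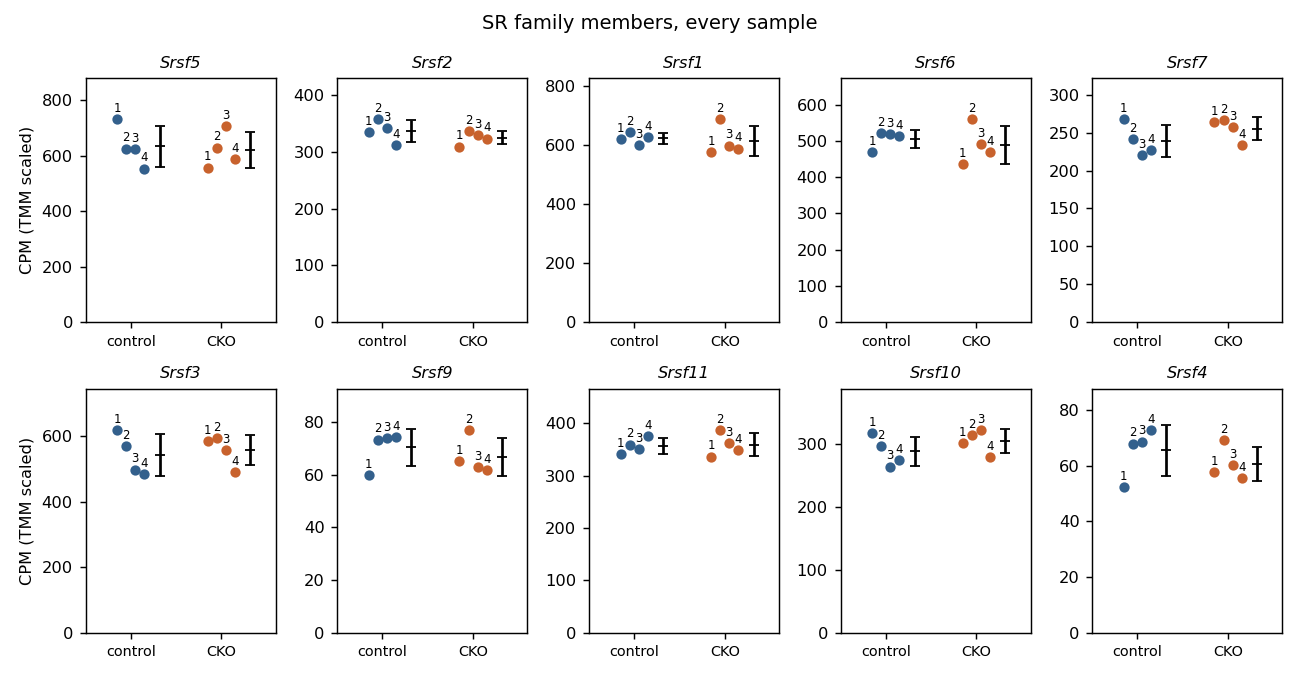
CPM (TMM-scaled, linear axis from 0) of each of the 10 SR family members, with 1 point per sample and the mean ± SD of the 4 control and 4 *Mettl3*-CKO samples. The groups overlap in all 10 panels, and the means lie closer together than the highest and lowest samples of either group.

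The log2 differences of the 10 members ran from −0.11 to 0.09, with 4 above 0 and 6 below, and their median was −0.03 beside −0.01 over all tested genes. Their median size regardless of sign was 0.0497. The same median was 0.181 over all tested genes and 0.126 over the 4452 genes at or above the mean CPM of *Srsf4*. The 95% intervals of the members reached from −0.36 to 0.28 at their outermost bounds, which is 0.782-fold to 1.21-fold, so changes beyond these bounds lay outside the interval of every member. The smallest difference that was called in any gene was 0.244. Adjusted p-values of the members ran from 0.553 to 0.962 by edgeR's quasi-likelihood test. The half-widths of their intervals, 0.167 to 0.245, were narrower than the median over all tested genes, 0.292. A p that misses the threshold does not show that the groups are alike.

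**Figure D2:**
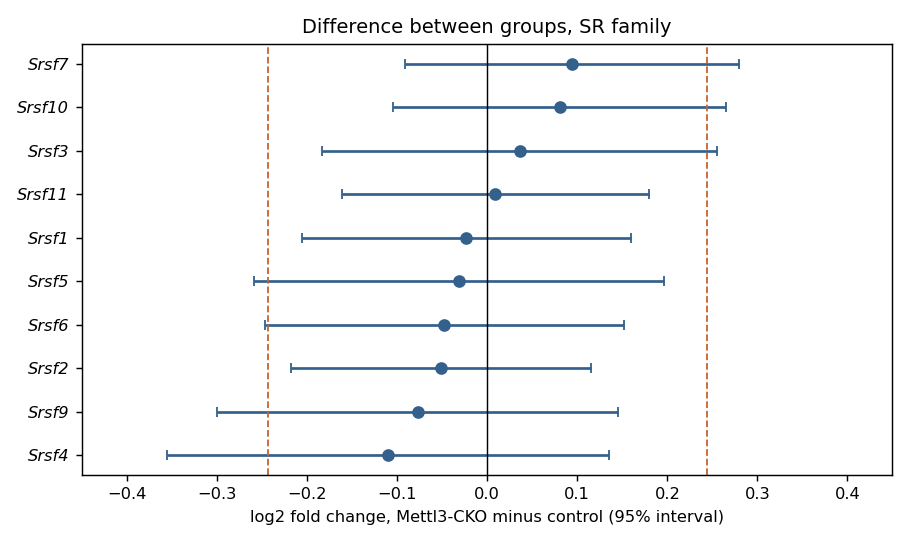
Log2 fold change (*Mettl3*-CKO over control, horizontal axis) of each SR family member with its 95% interval from edgeR's quasi-likelihood test, with dashed lines at the smallest difference called in any gene, 0.244 in either direction. All 10 intervals include 0, and the point values lie between −0.11 and 0.09.

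The range from the lowest to the highest sample of a group was larger than the difference between the groups for 10 of 10 members in each group. The share of all tested genes with such a range was not taken, so this count does not set the family apart. The highest control was 1.08 times the lowest for *Srsf1* and 1.39 times for *Srsf4*, and in *Mettl3*-CKO this ratio ran from 1.09 for *Srsf2* to 1.29 for *Srsf6*. On the log2 scale the SD was larger in controls for 7 members, again without a share over all genes to set beside it. *Mettl3*-CKO replicate 2 was the highest sample of its group for 8 members, all but *Srsf5* and *Srsf10*, where it was the highest for 28.2% of all tested genes. The lowest *Mettl3*-CKO sample was replicate 1 for *Srsf1*, *Srsf2*, *Srsf5*, *Srsf6* and *Srsf11* and replicate 4 for *Srsf3*, *Srsf4*, *Srsf7*, *Srsf9* and *Srsf10*.

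Control replicate 1 was the highest control for 4 members, *Srsf3*, *Srsf5*, *Srsf7* and *Srsf10*, and for 39.7% of all tested genes. It was the lowest control for 4 others, *Srsf4*, *Srsf6*, *Srsf9* and *Srsf11*, and for 36.2% of all tested genes. It was the highest or lowest control for 8 of 10 members and 75.9% of all tested genes, so the family was near the shares over all genes. This sample also had the highest mitochondrial share, the highest summed rod level (4157 CPM) and the lowest summed cycling progenitor level (1533 CPM) among the controls. The part of these differences in the SR family values was not tested. Without control replicate 1 edgeR's quasi-likelihood test still called 0 members, and the adjusted p of *Srsf4* was then 0.136, the lowest that any member reached in 16 other fits. With control replicates 1 and 4 both left out the count was again 0.

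**Figure D3:**
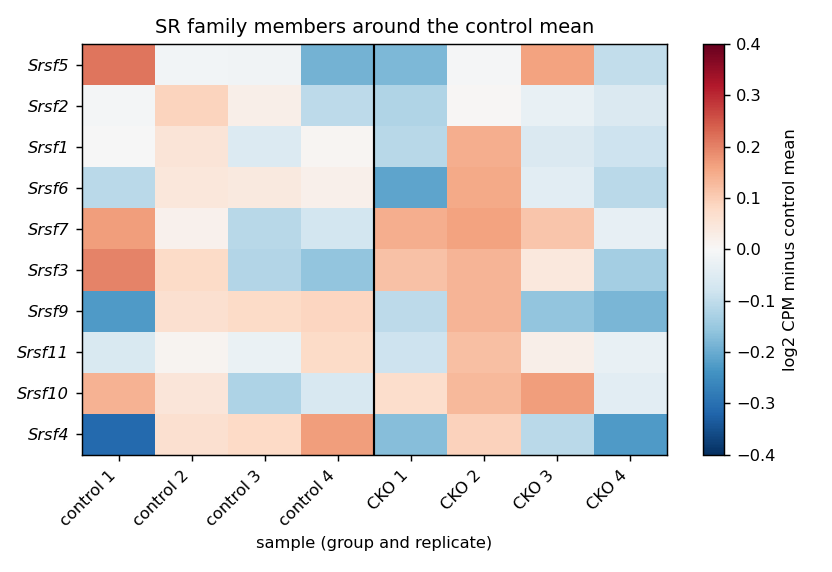
Log2 CPM of each SR family member (rows) in each sample (columns: group and replicate) minus the mean of the 4 controls, as a colour scale. Control replicate 1 is above the control mean by 0.21 for *Srsf5* and below it by 0.31 for *Srsf4*, and *Mettl3*-CKO replicate 2 is at or above it for 9 of 10 members.

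The summed level of the 10 members overlapped between the groups. Summed counts took 0.352%, 0.392%, 0.372% and 0.347% of the library in *Mettl3*-CKO samples and 0.369%, 0.379%, 0.355% and 0.354% in controls. The highest and the lowest share were both *Mettl3*-CKO samples, replicates 2 and 4. The means were 0.365% ± 0.0204 and 0.364% ± 0.0119 (SD, n = 4 in each group), and the length-scaled sums were 801 ± 43.2 and 801 ± 24.8 FPKM (counts divided by the deposited gene length and the library total).

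Per length, which allows levels to be compared between genes, *Srsf5* had the highest level of the family in controls, 158 ± 15.6 FPKM (SD, n = 4), and *Srsf4* the lowest, 18.3 ± 2.80 FPKM. *Srsf2*, *Srsf1*, *Srsf6* and *Srsf7* followed *Srsf5* at 113, 109, 105 and 104 FPKM, and each of these overlapped its neighbour in the order across the control samples. *Srsf3* came next at 68.4 FPKM. *Srsf9*, *Srsf11* and *Srsf10* were close together at 42.4, 42.0 and 40.9 FPKM and could not be ranked among themselves. Of the 9 steps in this control order, 4 separated neighbours without overlap, and these 4 pairs did not overlap in *Mettl3*-CKO either: *Srsf5* above *Srsf2*, *Srsf7* above *Srsf3*, *Srsf3* above *Srsf9* and *Srsf10* above *Srsf4*. With the deposited gene length the order in *Mettl3*-CKO was not the same. *Srsf7* was second there at 112 FPKM, and *Srsf6* was above *Srsf7* in 3 of 4 controls and in 0 of 4 *Mettl3*-CKO samples. *Srsf10* and *Srsf9* also changed places, at ranks 7 and 9. Among all tested genes the control FPKM of *Srsf4* stood at percentile 81.9 and that of *Srsf5* at percentile 99.0.

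The order depended on the length used. The deposited gene length joins the exons of all transcripts, and *Srsf3*, *Srsf10* and *Srsf11* have 7899, 7003 and 8446 such bases against 2618, 3754 and 3106 in the principal coding transcript. On the length of that transcript, an alternative chosen after the data had been seen, *Srsf5* stayed first (402 FPKM) and *Srsf4* last (28.9 FPKM), while *Srsf3* moved to second (206 FPKM) and *Srsf7* fell to seventh place (104 FPKM). With it 3 of 10 members kept their rank. The changes of place between the groups were also not the same on this length. The mean of *Srsf6* was above that of *Srsf7* in controls (143 and 104 FPKM) and in *Mettl3*-CKO (139 and 112 FPKM). *Srsf10* ranked above *Srsf9* in both groups, and *Srsf1* and *Srsf11* changed places instead, at ranks 5 and 6. The deposited length of *Srsf7*, 2279 bases, is also shorter than the 3550 exonic bases of GENCODE vM21, and it is the only member whose coordinates differ between the count table and that annotation, so its FPKM is the least certain. Length does not enter the differences between groups.

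**Figure D4:**
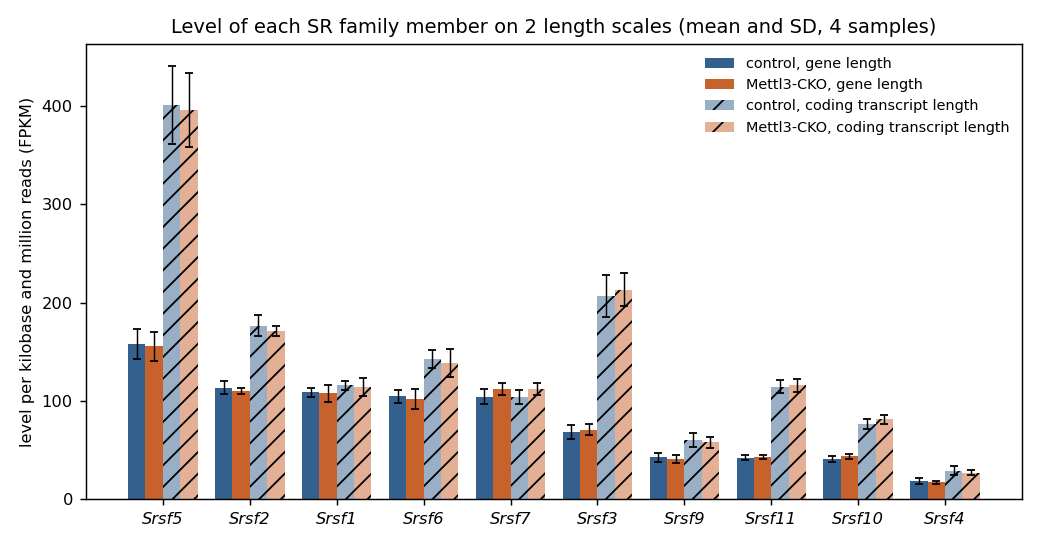
FPKM of each SR family member on 2 length scales, the deposited gene length and the length of the principal coding transcript, as mean and SD of the 4 samples of each group. *Srsf5* is first and *Srsf4* last on both scales, while *Srsf3* rises from 68.4 to 206 FPKM in controls.

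The sequence GGACT, a common form of the m6A consensus, was searched on the transcript strand of the principal coding transcripts. It occurred in 9 of 10 members, with 5 occurrences in *Srsf1*, 3 in *Srsf9*, 2 in *Srsf7*, 1 in the other 6 and 0 in *Srsf5*. Among the longest coding transcripts of 21901 protein-coding genes 87.6% held it. The median density was 0.413 per kilobase in the members and 1.01 per kilobase in that background. The transcripts were chosen in different ways in the members and in the background, and a match describes letters and not a methylated site. The authors mapped m6A peaks in mouse retina by sequencing of immunoprecipitated RNA, also at postnatal day 7. Those peaks were not set beside the members here.

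Other genes of the splicing pathway were followed in 7 lists holding 130 genes, of which 129 could be tested. edgeR's quasi-likelihood test called 5 higher and 2 lower, or 5.43% of those tested, beside 10.5% of all genes, and their median log2 difference was 0.01. Without control replicate 1 these counts were 10 higher and 10 lower, and without *Mettl3*-CKO replicate 1 they were 2 and 0. Leaving out any 1 of the other 6 samples gave 2 to 5 higher and 0 to 2 lower. The kinases and import factors that act on SR proteins had 0 of 10 called with each of edgeR, DESeq2 and limma voom. The U1, U2 and U2AF proteins that the RS tail helps to recruit had 0 of 18 called with each of those tools. Over all tested genes the 3 tools called 10.5%, 14.2% and 10.2%. An unadjusted edgeR p under 0.05 was reached by 2 of these 10 and 1 of these 18, beside 24.6% of all tested genes. It was reached by 3 of 29 SR-like coregulators, 6 of 26 hnRNP proteins and 3 of 23 neuronal splicing regulators. In the nonsense-mediated decay list it was 3 of 15, and among partners in m6A reading, export and cleavage 2 of 8.

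Among the 29 SR-like coregulators, which also carry RS tails or bind them, *Son*, a large scaffold of nuclear speckles, was higher at 2041 ± 55.8 CPM against 1596 ± 72.1 CPM in controls (log2 fold change 0.36, adjusted p = 0.0159). *Rsrp1* was lower at 388 ± 50.6 CPM against 517 ± 40.3 CPM (−0.42, adjusted p = 0.0251). Of 26 hnRNP proteins, RNA-binding proteins that often oppose SR proteins, *Hnrnpf* was higher (0.32, adjusted p = 0.0314) and *Pcbp2* lower (−0.28, adjusted p = 0.0420), and of 23 neuronal splicing regulators *Khdrbs2* was higher (0.42, adjusted p = 0.0280). In the nonsense-mediated decay list *Smg8*, a regulator of the SMG1 kinase, was higher (0.59, adjusted p = 0.00615, 1 of 15 called). *Nxt1*, the cofactor of the export receptor for which SRSF3 and SRSF7 are adaptors, was higher at 66.3 CPM against 23.0 CPM (log2 fold change 1.53, SE 0.15, adjusted p = 0.000227). It was the only one of 8 partners in m6A reading, export and cleavage to be called. The authors had already selected *Nxt1* as an m6A-tagged gene with raised expression in mutant progenitor and Müller glia clusters. Its call is therefore not read as a result about partners of SR proteins. Of the 8 partners, 2 had an unadjusted edgeR p under 0.05, beside 24.6% of all tested genes, and 2 had groups that did not overlap, *Nxt1* among them. The adjusted p-values of the 7 called genes came from the edgeR quasi-likelihood fit of all genes. The groups did not overlap in any of the 7 genes, where 17.4% of all tested genes had groups that did not overlap. The 7 genes were picked as called, so this is not separate support. *Nxt1* and *Smg8* were called whichever sample was left out. *Son* was not called without *Mettl3*-CKO replicate 1 or control replicate 3 (adjusted p up to 0.0527). *Rsrp1* was not called without *Mettl3*-CKO replicate 1 or 3 or control replicate 2 or 4 (up to 0.0875). *Hnrnpf* and *Khdrbs2* were called only without *Mettl3*-CKO replicate 4 or control replicate 1, and *Pcbp2* only without *Mettl3*-CKO replicate 2 or control replicate 1, with adjusted p up to 0.103, 0.0940 and 0.138 in the other leave-one-out fits. *Pcbp2* was also not called with library-total scaling, without the low-count filter or with the replicate number as a block (up to 0.0941), and *Rsrp1* and *Khdrbs2* were not called with control replicates 1 and 4 both left out (0.0532 and 0.0664).

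**Figure D5:**
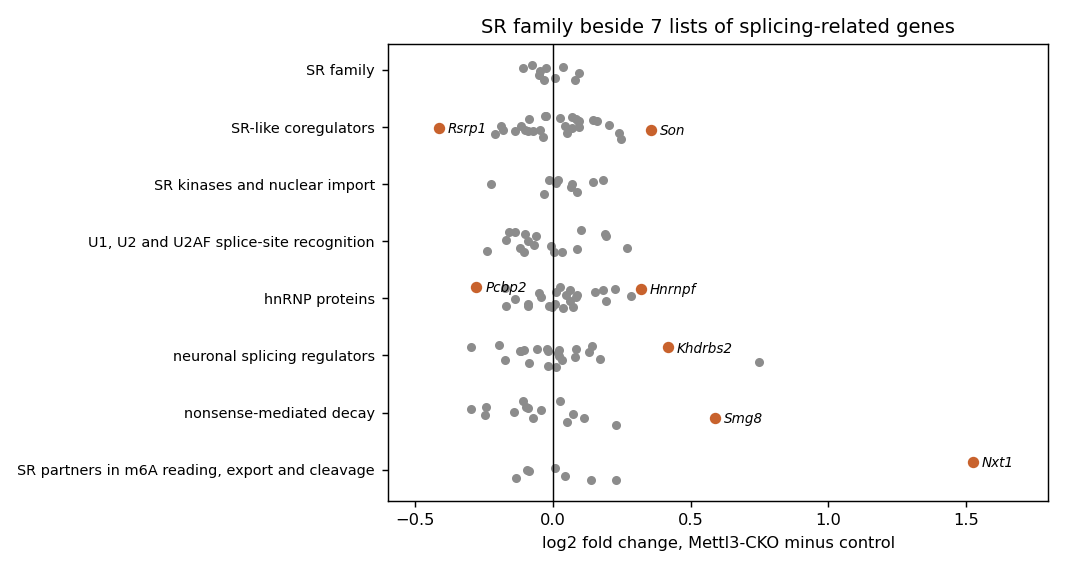
Log2 fold change (*Mettl3*-CKO over control) of each tested gene in the SR family and in 7 other lists of splicing-related genes, with 1 point per gene and called genes coloured and named. The 10 SR family members lie between −0.11 and 0.09 with none called, and *Nxt1* at 1.53 is the farthest from 0.

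The rise and fall of the members over the 8 samples was also compared with that of every other tested gene, as a description. The mean of the members' centred and scaled profiles was highest in *Mettl3*-CKO replicate 2 and lowest in *Mettl3*-CKO replicate 4. *Gm43815* (Pearson r = 0.977), *Qk* (0.936), *Trim44* (0.922), *Elf2* (0.919) and *Samhd1* (0.909) had the profiles most like it over these 8 samples, which share library depth and cell composition with the members. These 5 were picked as the highest r among all other tested genes, and the r that chance gives over 8 samples was not tested. *Gm43815* had a mean of 0.626 CPM, so its values rest on few counts, and *Qk* encodes an RNA-binding splicing regulator. None of the 5 was called between the groups by edgeR's quasi-likelihood test, with adjusted p from 0.771 for *Qk* to 0.953 for *Elf2* and *Samhd1*.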

How the data were processed

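RNA-seq of whole retina from 4 *Mettl3*-CKO and 4 control samples gave 1 library each. The sample labels give postnatal day 7, and the methods give an age 1 day younger. The authors mapped filtered reads to GRCm38 with HISAT2 and counted reads per gene with featureCounts, and the deposited values are raw counts. The annotation release and use of strand are not given in the sources used here. All 8 count columns were used. The test of the counts was edgeR 4.0.16 under R 4.3.3 (filterByExpr by group, TMM, quasi-likelihood test, Benjamini-Hochberg adjustment over 17998 genes, threshold 0.05), and alternatively with DESeq2 1.42.0 and limma 3.58.1 (voom). FPKM used the deposited gene length, per the file headers. The biological coefficient of variation was 15.0%, and the procedure was tested on simulated counts. No pair of same-group samples was one library deposited more than once (lowest chi-square 5.01 per gene). Transcripts, coding sequences, overlaps and copies (blastn, at least 90% identity) came from GENCODE vM21. The members and lists were chosen with earlier results of these data known. All 10 members were named, with *Mettl3*, *Srsf12*, up to 3 called genes per splicing list with the smallest adjusted p, and the 5 genes most like the family. Cell type lists are given by counts and sums. Scaling, filter, test, threshold, block and omitted samples were varied.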

Additional observations from a re-analysis of the deposited data

Results flagged for a closer look

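Among 22 groups of 4 samples, made of the 10 members and *Mettl3* in each condition, 2 held a sample set apart from the other 3 by a gap that took up most of the group's range, where chance gives 1 in 20, or 1.1 of 22. The 22 groups come from the same 8 samples and are not independent, so 2 beside 1.1 does not stand out. Both were control replicate 1, the highest or lowest control for 75.9% of all tested genes. *Srsf6* measured 8.87 on the log2 CPM scale there and 9.003 to 9.027 in the other controls. *Srsf9* measured 5.91 there and 6.20 to 6.22 in the other controls. The same sample had the highest mitochondrial share of counts, 2.38%, and the part of this in the 2 values was not tested.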

How the results depend on the processing

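No SR family member was called in any of 16 other fits per member (lowest adjusted p 0.136), and the signs of *Srsf2*, *Srsf4*, *Srsf7*, *Srsf9* and *Srsf10* held in all of them. The others turned. Leaving out 1 sample at a time gave log2 differences of −0.083 to 0.0094 for *Srsf1*, −0.015 to 0.11 for *Srsf3*, −0.094 to 0.045 for *Srsf5*, −0.12 to 0.0070 for *Srsf6* and −0.028 to 0.043 for *Srsf11*, and upper-quartile scaling gave −0.00028 for *Srsf11*. Over all genes, leaving out 1 sample gave 509 (without *Mettl3*-CKO replicate 1) to 1882 (without control replicate 1) genes higher and 185 to 1289 lower, and an adjusted p under 0.01 gave 439 and 147. For the other splicing lists the leave-one-out counts ran from 2 to 10 higher and 0 to 10 lower. An adjusted p under 0.01 left 2 higher and 0 lower there, library-total scaling and no low-count filter each left 1 lower, both controls 1 and 4 left out gave 6 lower, and DESeq2 gave 3 lower. *Mettl3* passed the threshold with DESeq2 and without *Mettl3*-CKO replicate 2 (adjusted p = 0.0185). Between 5 and 10 members kept their FPKM rank with 1 sample left out, and 3 on the principal transcript length. With the replicate number as a block, 0 members, 1198 genes higher and 660 lower, and in the other lists 1 lower were called. Same-numbered samples had correlations of −0.11, 0.22, −0.11 and 0.25. Samples numbered 2 and 4 correlated best with their own number, and those numbered 1 and 3 did not. The numbers were not taken as pairs in the main fit, and these values cannot tell whether they mark litters or batches. The causes of these shifts were not tested, beyond the smaller number of samples or the stricter threshold. The members had 979 or more counts in every sample, and no fit varied the depth.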
